A study of Mus musculus with 4 samples.

Results

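The genes examined here are 39 mouse genes of the E2F family and of the cell cycle it drives, listed by name: the 8 E2F factors, cyclins, cyclin-dependent kinases, replication licensing and fork proteins, mitotic kinases and the factors Foxm1 and Mybl2. All 39 were found by symbol among the 21631 protein-coding genes on chromosomes 1 to 19 and X of the RefSeq table (GRCm38.p6, the mm10 build). A gene was counted as holding a peak of the study's merged pull-down list when the peak's summit, its point of highest tag pileup, lay in the gene body or within 5 kb of it. By that rule 23 of the 39 genes held 54 summits and 16 held none. No summit fell to more than 1 of the 39 genes.

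E2F factors bind DNA as dimers with DP proteins and control the genes of S phase entry. D cyclins with Cdk4 and Cdk6 phosphorylate the retinoblastoma protein, which releases the activator E2Fs, and cyclin E with Cdk2 carries the cell into replication. Mybl2, Foxm1 and the repressors E2f4 and E2f5, acting with the MuvB core, set the later genes of mitosis. Malat1 is a highly expressed noncoding transcript retained in nuclear speckles, and in human cells its depletion has been reported to disturb cell cycle progression and the splicing of MYBL2.

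The study isolated chromatin with Malat1 from 4T1-TGL cells, a breast cancer line from BALB/c mice grown in DMEM/F12 medium, by ChIRP, in which biotinylated antisense oligonucleotides capture an RNA together with the DNA bound to it. The labels give 4 wild-type libraries, 1 each for a pull-down with the Even probes, one with the Odd probes, one with LacZ probes and an input titled as the Even input, all from the same line and with no treatment named. The deposited data are 1 list of 77823 peaks from 1 merged treatment against 1 input, and the sources used here do not say which pull-downs were merged. Whether the LacZ pull-down is part of the treatment is therefore not known. The treatment held 851227 tags after duplicate removal and the input 50030325, which is 58.8 times as many. No library can be compared with another, so no value below has a replicate error, and the cell identity was not checked against marker genes because peaks carry no expression.

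The cell cycle genes held peaks about as often as other genes of their length. Of the 39, 23 held a summit (59.0%), against 60.8% of all protein-coding genes (13159 of 21631). Among protein-coding genes within 25% of each member's length the share was 59.6%, averaged over the 39 members. The same like-length genes would have held 53.3 summits in all, where 54 were observed. The 23 genes with a summit had a median length of 15.8 kb and the 16 without one 11.7 kb, against 29.2 and 7.28 kb for all protein-coding genes, and the lengths of both groups of members overlapped: Pcna and Cdk4 held a summit at 3.90 and 3.75 kb, and Top2a held none at 31.3 kb. Of the 10 members of 5 to 10 kb, 3 held a summit (46.8% of all genes of that length did), of the 14 of 10 to 20 kb, 10 did (57.2%), and of the 6 of 20 to 30 kb, 2 did (67.1%).

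**Figure D1:**
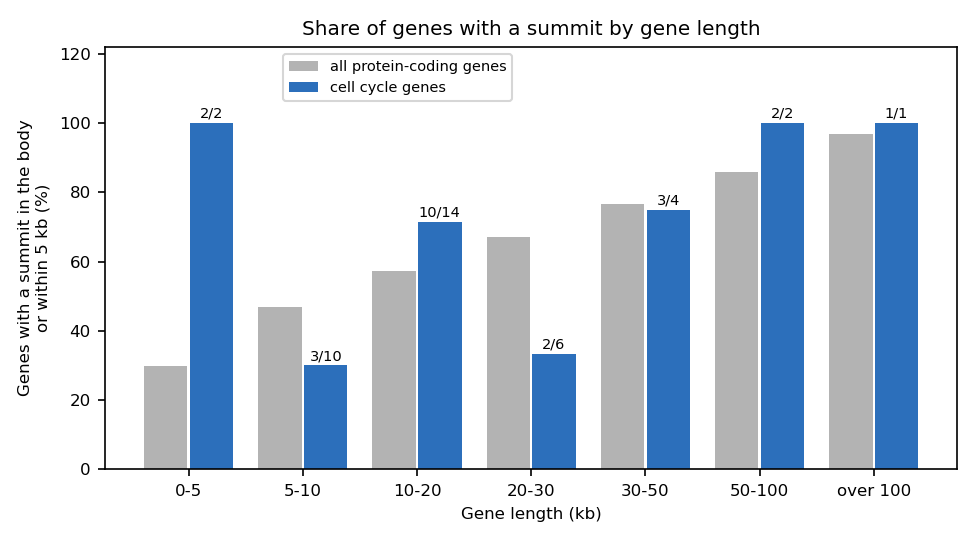
Share of genes that hold a summit, flanks of 5 kb included (vertical axis, percent) by gene length (horizontal axis, kb), for all protein-coding genes (grey) and for the 39 cell cycle genes (blue, with the number holding a summit over the number of that length). The grey share climbs from 29.8% to 96.8% with length, and the blue bars rest on 1 to 14 genes each.

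The peaks themselves were mostly small. Of the 54, 19 (35.2%) held 3 tags, the fewest of any peak in the list, against 37.2% in the whole list. The median was 4 tags and the highest count 107, against a median of 5 in the list. A count of 3 tags has an exact 95% Poisson interval of 0.619 to 8.77, and this and the other intervals given cover counting error only. The authors' fold enrichment, the summit height over the local input scaled to the treatment, had a median of 143 at these peaks and of 133 in the list. The local input that this fold implies, in units of the genome mean, ran from 1.00 to 2.32 with a median of 1.52 (median 1.44 at the peaks of all protein-coding genes, and a highest value of 100 in the list). The lowest value in the whole list was also 1.00, so a local input below the genome mean does not show in this measure. The members' share lay below that of other genes for peaks of at least 5 tags and above it for peaks of at least 30. A peak of at least 5 tags was present at 13 members (33.3%; 44.6% of all genes, 40.8% at like length), one of at least 10 tags at 8 (20.5%; 25.9% and 21.3%), and one of at least 30 tags at 4 (10.3%; 6.01% and 4.32%).

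**Figure D2:**
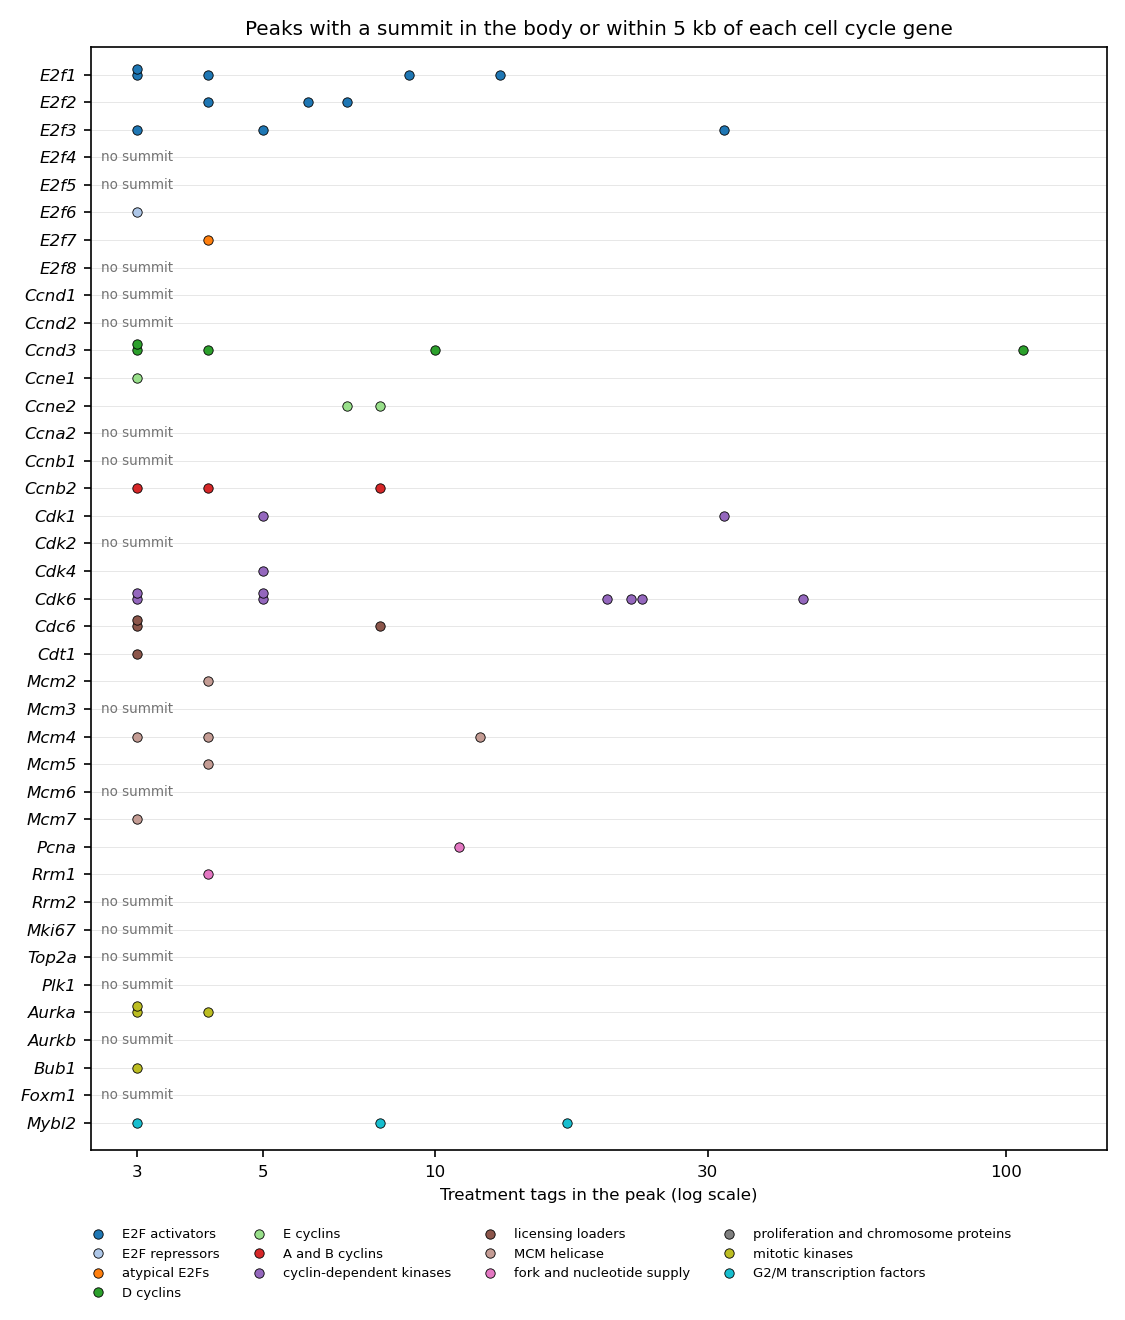
Treatment tags (horizontal axis, log scale) of each peak whose summit lies in or up to 5 kb from each of the 39 cell cycle genes (vertical axis), coloured by role; points of equal count in a gene are stacked upwards. Peaks of at least 30 tags are at E2f3, Ccnd3, Cdk1 and Cdk6, and 16 genes have no summit.

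The activator E2Fs all held summits, where the mean share at like length was 68.4%. E2f1, E2f2 and E2f3, which switch on S phase genes, had 11 in total, where the density of summits over 500 kb on each side predicted 5.38. E2f1 (chromosome 2, gene ID 13555, 10.5 kb) had 5 summits with peaks of 13, 9, 4, 3 and 3 tags and none of them in its body. Of these, 4 lay in the 5 kb before the gene, at 1.42, 1.62, 3.94 and 4.27 kb before its annotated start, outside any other annotated gene. That start lies inside the gene body, and the closest of the 4 was 956 bp from the body's upper end. The fifth lay 937 bp past the other end, inside Necab3. The peak of 13 tags (chr2:154573172-154573404, exact Poisson interval 6.92 to 22.2) had a fold of 150.

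Among the 39 members E2f1 stood out by number rather than by strength. Among 2516 protein-coding genes of like length, 1.03% held 5 or more summits, while 11.8% held a peak of at least 13 tags. Its flanks predicted 1.09 summits, and its excess had the smallest p of the 39 members (two-sided exact binomial test of the window against its flanks, p = 0.00619), which did not pass adjustment over all genes tested (adjusted p = 0.643). The implied input at its 5 peaks was 1.85 to 2.32, above the median of 1.60 on chromosome 2, and 2 of the 5 summits were left when only peaks under 2 times the genome mean were used; the part of local input in this count was not tested.

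E2f3 held one of the strong peaks of the set and E2f2 only small ones. In E2f3 (chromosome 13, gene ID 13557, 79.5 kb) a peak of 32 tags (chr13:29921620-29921928, interval 21.9 to 45.2) had a fold of 572, rank 1154 of all peaks, and lay 80.9% of the way along the gene body at an implied input of 1.05. The other E2f3 peaks held 5 and 3 tags. The E2f2 peaks held 7, 6 and 4 tags, the largest 3.27 kb after the gene's first annotated start and the others within 511 bp of its far end on either side.

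Among the other E2Fs summits were few. Of the repressors E2f4, E2f5 and E2f6 only E2f6 had one, a peak of 3 tags 3.17 kb past its end. Of the atypical factors E2f7 and E2f8, which repress E2F targets without a DP partner, E2f7 had a peak of 4 tags (fold 70.1) whose summit lay 494 bp before its annotated start, and E2f8 had none, with the nearest summit 36.4 kb away. The repressors held 1 summit where their flanks predicted 2.78, and the atypical factors 1 where 2.81 were predicted. The mean share of like-length genes with a summit was 58.4% for the repressors and 67.8% for the atypical factors.

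Promoters were compared with the peaks because E2F factors act there. RefSeq promoter windows (GRCm38.p6, 250 bases before to 50 after an annotated start) were found for 30 of the 39 genes, 34 windows in all. No peak overlapped any of the 34, and 1.86% of the 21045 promoter windows of protein-coding genes were overlapped (392). The closest were E2f7, with 133 bp between its peak and the window, and Cdc6, with 200 bp. For the E2F site only the letters TTTCCCGC and TTTGGCGC were searched, on either strand, so its other forms were not counted. Such a match was in 10 of the 34 windows (29.4%) and in 2.04% of all. The letters of the cell cycle homology region, TTTGAA, were in 10 (29.4%, against 15.6%), and CCAAT was in 24 (70.6%, against 38.5%). No 2 matches overlapped. Windows of members with a summit held E2F letters in 7 of 25 cases, TTTGAA in 6 and CCAAT in 15, and those of members without one in 3, 4 and 9 of 9. The E2f7 and Cdc6 windows are shown because their peaks were nearest, and the Cdk1 window and the first of 2 E2f3 windows because these genes hold peaks of 32 tags deeper in the gene; capitals mark every match to these motifs.
E2f7, chr10:110745189-110745488, plus strand: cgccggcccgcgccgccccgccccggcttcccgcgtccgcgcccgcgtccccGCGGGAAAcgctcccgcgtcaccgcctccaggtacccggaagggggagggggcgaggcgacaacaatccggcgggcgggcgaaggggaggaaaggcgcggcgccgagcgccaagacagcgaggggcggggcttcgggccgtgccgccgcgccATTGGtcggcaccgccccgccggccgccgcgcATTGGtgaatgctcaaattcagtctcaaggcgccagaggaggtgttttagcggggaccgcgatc
Cdc6, chr11:98907901-98908200, plus strand: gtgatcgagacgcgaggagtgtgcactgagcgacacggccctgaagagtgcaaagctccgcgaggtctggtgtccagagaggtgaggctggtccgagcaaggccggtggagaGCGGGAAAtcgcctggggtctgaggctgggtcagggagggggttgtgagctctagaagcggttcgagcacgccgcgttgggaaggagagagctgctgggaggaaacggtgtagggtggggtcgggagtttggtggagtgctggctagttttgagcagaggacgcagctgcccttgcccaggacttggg
Cdk1, chr10:69352863-69353162, minus strand: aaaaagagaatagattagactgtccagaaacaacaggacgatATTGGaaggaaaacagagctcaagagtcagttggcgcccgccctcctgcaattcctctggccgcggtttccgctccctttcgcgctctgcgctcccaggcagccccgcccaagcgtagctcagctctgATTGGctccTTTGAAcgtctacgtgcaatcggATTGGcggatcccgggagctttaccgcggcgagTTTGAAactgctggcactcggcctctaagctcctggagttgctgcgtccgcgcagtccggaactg
E2f3, chr13:29986014-29986313, minus strand: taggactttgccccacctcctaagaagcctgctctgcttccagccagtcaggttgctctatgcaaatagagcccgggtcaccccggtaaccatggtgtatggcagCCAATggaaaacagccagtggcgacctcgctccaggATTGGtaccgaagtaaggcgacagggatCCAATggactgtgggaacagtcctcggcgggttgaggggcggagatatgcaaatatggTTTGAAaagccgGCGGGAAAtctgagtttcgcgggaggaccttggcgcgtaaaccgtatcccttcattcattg
The E2f7 and Cdc6 windows each hold 1 E2F match, read on the opposite strand as GCGGGAAA. The Cdk1 window holds TTTGAA and CCAAT matches but neither of the E2F forms searched, and this E2f3 window holds all 3 kinds. A second E2f3 window in the table, at a later start (chr13:29984342-29984641) and nearer to the gene's peaks, holds no match.

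The D cyclins were uneven. Ccnd3 (chromosome 17, gene ID 12445, 94.6 kb) held the strongest peak of the 39 genes, with 107 tags (chr17:47541819-47542272, interval 87.7 to 129) and a fold of 961. It ranked 179 by tags and 61 by fold among the 77823 peaks, at an implied input of 1.31, and 0.379% of 1582 like-length genes held a peak of as many tags. The summit lay 36.9 kb after the gene's first annotated start, 39% of the way along the gene body, inside the lncRNA gene Gm41590 that overlaps it. A later start is annotated at chr17:47593467, past every summit of the gene. A second peak, of 10 tags, lay in the same lncRNA, and 3 more held 4, 3 and 3 tags. In number Ccnd3 was ordinary: 5 summits against 3.03 predicted, and 33.8% of like-length genes held as many. Ccnd1 and Ccnd2 had none, with the nearest summits 9.62 and 10.2 kb away. For the D cyclins the mean share at like length was 70.3%.

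The later cyclins had small peaks. Ccne2, whose product activates Cdk2 at the start of S phase, had peaks of 8 tags (chr4:11191221-11191347, fold 266) and 7 tags (fold 157), with summits 863 bp inside and 196 bp outside its lower end; the second lay in the overlapping lncRNA gene A630034I12Rik. Ccne1 had a single peak of 3 tags in its body. Of the mitotic cyclins, Ccnb2 held 8, 4 and 3 tags in 3 peaks, 2 of them past its end and also within 5 kb of Myo1e, against 0.740 predicted (exact binomial p = 0.0443, adjusted p = 1). Ccna2 and Ccnb1 held none, with the nearest summits 20.3 and 35.7 kb away.

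The cyclin-dependent kinases held 11 summits, 8 of them at Cdk6, where 8.99 were predicted for the 4 genes. Cdk6 (chromosome 5, gene ID 12571, 190 kb), the partner of D cyclins, had peaks of 44, 23, 22, 20, 5, 5, 3 and 3 tags. The strongest (chr5:3461297-3461728, interval 32.0 to 59.1, fold 479) lay 63.5% of the way along the gene body, and the peak of 23 tags lay 473 bp inside the far end. For so long a gene this number was usual: 97.1% of 784 like-length genes held a summit and 35.2% held 8 or more, and the flanks predicted 6.52. A peak of at least 44 tags was present in 10.3% of them. Cdk1, the kinase of mitotic entry (chromosome 10, gene ID 12534, 17.8 kb), had a peak of 32 tags near the middle of its body (chr10:69342270-69342729, interval 21.9 to 45.2, fold 395), reached by 3.55% of like-length genes, and one of 5 tags 1.93 kb after its start. Cdk4 had a single peak of 5 tags (fold 208), 2.11 kb before its start and also within 5 kb of Marchf9, and Cdk2 had none (nearest summit 27.9 kb away). Together Ccnd3 and Cdk6 held 252 of the 526 tags in the peaks of the 39 genes (47.9%).

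Of the 8 replication licensing genes 6 held summits, with at most 12 tags in a peak. The mean share at like length was 49% for the loaders and 58.8% for the MCM subunits. Cdc6, which loads the MCM helicase at origins, had peaks of 8, 3 and 3 tags where 0.971 summits were predicted (11.9% of like-length genes held as many). The largest lay 841 bp past its end (fold 232), also within 5 kb of Rara. Another lay 287 bp after its annotated start, also within 5 kb of Wipf2. Cdt1, the loading partner of Cdc6, had a single peak of 3 tags, also within 5 kb of Aprt. Both loaders together held 4 summits where 1.71 were predicted. Of the 6 MCM subunits 4 held summits, 6 in all where 4.83 were predicted. Mcm4 had peaks of 12, 4 and 3 tags, against 0.635 predicted (exact binomial p = 0.031, adjusted p = 0.957), the largest (chr16:15636896-15637080, fold 238) 455 bp inside its higher end. All summits of Mcm4 also lay within 5 kb of the neighbouring gene Prkdc, which encodes a DNA repair kinase, the largest at 499 bp from it. Mcm2, Mcm5 and Mcm7 had single peaks of 4, 4 and 3 tags, and Mcm3 and Mcm6 had none, Mcm3 by a short distance (5.20 kb).

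Of the 11 genes of the fork, of mitosis and of its transcription factors 5 held summits, and the mean share at like length was 58.4%. Pcna, the sliding clamp, had a peak of 11 tags in its body (chr2:132250878-132251079, interval 5.49 to 19.7, fold 224), also within 5 kb of Tmem230 and Cds2; 10.5% of like-length genes held one of as many tags. Rrm1, the large subunit of ribonucleotide reductase, had 1 peak of 4 tags and its partner Rrm2 none. Aurka had peaks of 4, 3 and 3 tags and Bub1 a single peak of 3, whereas Plk1 and Aurkb, also kinases of mitosis, had none. Mki67 and Top2a, the proliferation marker and the decatenating topoisomerase, had none either, with the nearest summits 38.2 and 6.37 kb away. Mybl2 had peaks of 17, 8 and 3 tags, the largest (chr2:163056976-163057329, fold 196) 2.54 kb after its start, and 3.15 summits were predicted. Foxm1 had none, with the nearest summit 29.4 kb away. At a genome mean of 0.315 tags per kb and a minimum of 3 tags per peak, a gene without a summit was one where no peak was detectable at this depth.

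**Figure D3:**
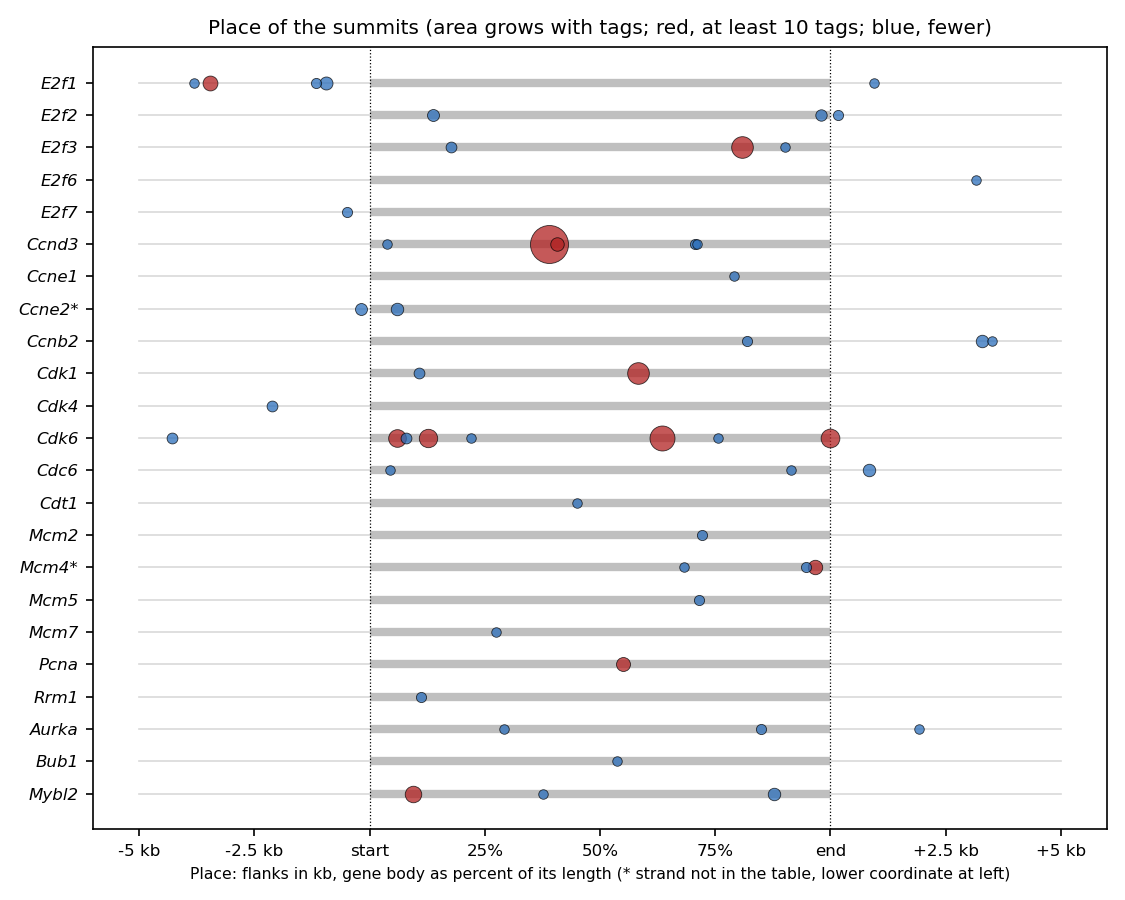
Place of the 54 summits at the 23 genes that held any (vertical axis). The horizontal axis shows 5 kb on either side of the gene in kb and the gene body as percent of its length, from start to end of the gene; circle area grows with tags, red for at least 10 tags and blue for fewer, and Ccne2 and Mcm4, whose strand is not in the table used, run from lower to higher coordinate. Of the summits 39 lie in bodies, and E2f1 has 4 before its start and none in its body.

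Within the genes the summits were spread much as their length was. The bodies held 39 of the 54 summits (72.2%) and made up 70.9% of the length examined, and for all protein-coding genes the corresponding shares were 82.1% and 82.9%. The density was 41.0 summits per Mb in the bodies and 38.5 in the flanks, against 36.2 and 38.3 for all protein-coding genes. Among the 30 members with a known strand, 7 summits lay in the upstream and 7 in the downstream flanks. The annotation used here gives no exons, so summits were not split into exons and introns.

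Within 1 kb of an end lay 12 of the 54 summits (22.2%), a zone that made up 11.6% of the length; for all protein-coding genes the shares were 7.26% and 6.84%. Like-length genes would have held 6.56 such summits. The 12 came from 7 genes, E2f1, E2f2, E2f7, Ccne2, Cdk6, Cdc6 and Mcm4, of which 5 had 2 each. As a share of genes this was 17.9%, against 13.4% of all protein-coding genes and 14.6% of those of like length. With peaks of at least 5 tags it was 15.4% (6 genes), against 7.16% and 7.79%. Within 2 kb of an end it was 28.2% (11 genes), against 24.1% and 26.7%.

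Whether single genes held more summits than their surroundings was tested with a two-sided exact binomial test per gene, which takes summits as independent and describes this list only. It covered the 21256 protein-coding genes with a summit in or around them, of which 0.0376% (8) passed as higher and 0.0141% (3) as lower after Benjamini-Hochberg adjustment. None of the 39 members passed. At an unadjusted p under 0.05, 3 members were higher (E2f1, Mcm4 and Ccnb2; 7.69%, against 4.05% of all genes tested) and none was lower (0.555% of all genes tested). Some summits of these 3 genes lay close together. E2f1 had a pair of summits 1.42 and 1.62 kb before its start and a second pair at 3.94 and 4.27 kb. Mcm4 had summits 455 and 712 bp inside its higher end. Ccnb2 had summits 3.29 and 3.51 kb past its end. Whether such neighbouring summits are independent was not tested. In sum the 39 windows held 54 summits where their flanks predicted 49.9, a ratio of 1.08 (exact Poisson interval on the count 0.812 to 1.41), with 18 genes above and 21 below their prediction.

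**Figure D4:**
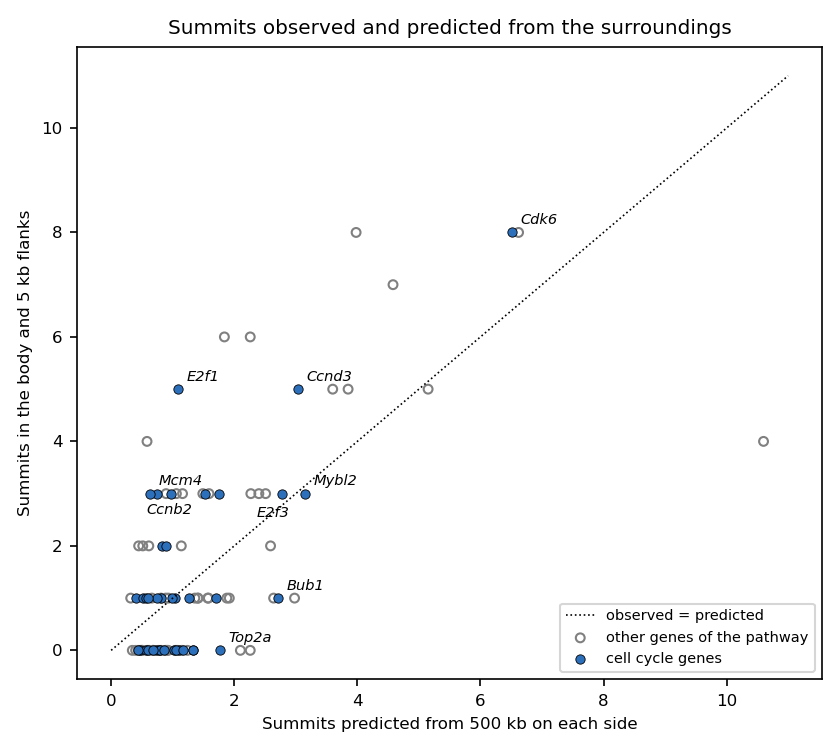
Summits in the gene body and 5 kb flanks (vertical axis) against the number predicted from the density over 500 kb on each side (horizontal axis), for the 39 cell cycle genes (blue) and 58 other genes of the pathway (open); the dotted line marks equality. Of the 39, E2f1, with 5 summits and 1.09 predicted, lies farthest above the line in number of summits.

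Density of summits differed between the chromosomes on which the genes lie. All 5 members on chromosome 2 (E2f1, Pcna, Mybl2, Aurka and Bub1) held summits, 13 in all, on a chromosome with 39.5 summits per Mb where 65.8% of protein-coding genes held one. On chromosome 11, with 43.6 per Mb and 60.5%, 1 of 3 members did (Cdc6, not Top2a or Aurkb), and on chromosome 1, with 31.3 per Mb and 71.2%, neither of 2 did (Mcm3 and Mcm6). On chromosome 7, with 29.9 per Mb and 52.5%, 2 of 6 members did (Ccne1 and Rrm1, not E2f8, Ccnd1, Mki67 or Plk1). No member lies on chromosome 15, the densest, or on X, the sparsest. The part of the chromosome in the members' counts was not tested. Of the 54 summits 15 also lay within 5 kb of another protein-coding gene, and these cannot be told apart from peaks of the neighbour. For 6 of the 23 genes this was true of every summit: Cdk4, Cdt1, Mcm4, Mcm7, Pcna and Aurka. The matching share for other genes was not computed, so neither count is read as particular to the members.

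Other genes of the pathway were taken from a fixed list of 58. Of these 37 (63.8%) held 106 summits, against 65.4% at like length and 101 summits predicted from the flanks. Within 1 kb of an end lay 8.49% of their summits, in a zone of 8.82% of the length. All 5 genes of the MuvB core held summits (71.6% at like length), 17 in all where 10.8 were predicted, with the highest tag counts at Lin54 (8) and Lin9 (7). Both E2F dimer partners did as well (85.3% at like length), with 14 against 5.82, Tfdp2 reaching 28 tags and Tfdp1 8. The pocket proteins held summits at 2 of 3 genes (86.1% at like length), 12 against 10.9, with Rbl1 at 18 tags and the retinoblastoma gene Rb1 at 5.

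Among the inhibitors of the kinases 2 of 7 held summits, Cdkn1c with 9 tags and Cdkn1a with 8, and the mean share at like length was 44.7%. Of the genes that activate or restrain the kinases 4 of 7 held summits (61.5% at like length), led by the phosphatase gene Cdc25a (19 tags) and the inhibitory kinase gene Pkmyt1 (12). Origin firing genes held one at 10 of 15 (65.3% at like length), led by Dbf4 (23), the activator of Cdc7, and Gmnn (12), the inhibitor of Cdt1. Spindle checkpoint and kinetochore genes held one at 9 of 13 (63.0%), led by Cenpf (17) and Cenpe (14). Ubiquitin ligase parts held one at 3 of 4 (78.9%), 17 summits where 21.6 were predicted, led by Fbxw7 (10) and Skp2 (4). Myb and Mybl1, the relatives of Mybl2, held none (73.8%). No peak of these 58 genes reached 30 tags, and none of the genes passed the adjusted test.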

How the data were processed

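Peaks, intervals and summits come as 3 deposited lists, identical in position, score and summit. Per the file headers, MACS 1.4.4 compared 1 merged treatment with 1 input at a p cutoff of 1e-05, a fragment length of 53 bp and an effective genome size of 2.7 Gb. Per the submitters' processing notes, coordinates are on mm10 (GRCm38). The aligner and the way libraries were merged are not given in the sources used here. Reads were single-end of 76 nt, per the labels. The deposited tag count is whole treatment tags per peak. The deposited fold is the ratio of summit height to local scaled input. The deposited score (10 times the negative log10 p) was used only to set 1 stricter threshold. The deposited signal at each summit is the unscaled tag pileup. The deposited FDR is 0 percent for every peak and was not used.

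The implied input is the height divided by the fold, over the genome mean background (0.0167 tags). Like length meant within 25%. Flanks of 500 kb were clipped at the first and last summit of a chromosome. Each gene was described by its peak with the most tags first. Strand and promoter windows came from the RefSeq promoter table, which held 30 of the 39 genes. The local test was tested on simulated counts drawn as independent, a setting that does not cover closely spaced summits. Values were computed with Python 3.11.15, pandas 2.3.3 and scipy 1.17.1. The members and lists were chosen with earlier results of these data known. The merged list holds 1 value per peak, so n is 1 throughout, and 77713 of 77823 peaks on chromosomes 1 to 19 and X were used.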

Additional observations from a re-analysis of the deposited data

How the results depend on the processing

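Because the 39 genes are a fixed list, the binomial interval below is only a yardstick and measures no effect of processing. The share of members with a summit (59.0%, exact 95% binomial interval 42.1 to 74.4) left that interval under 5 settings. It was 76.9% with a 10 kb window (69.1% at like length), 33.3% with at least 5 tags (40.8%), 20.5% with at least 10 tags (21.3%), 41.0% with fold at or above the list's median (41.5%) and 38.5% with score at or above it (40.7%). Each of these settings adds length or removes peaks, and why members and like-length genes moved by different amounts was not tested. With the gene body alone, a 1 kb window, at least 4 tags, any overlap, implied input under 2 or other length tolerances it stayed inside, at 46.2% to 59.0%. Leaving out 108 genes that the table starts below 3 Mb, an alternative chosen after seeing the data, as were those on gene ends, left 59.0%. The ratio of observed to predicted summits ran from 1.01 to 1.15 over its 5 alternatives, and no member passed under any. The share of summits in gene bodies fell to 53.4% with a 10 kb window, where bodies made up 54.9% of the length. Single genes depended on the smallest peaks: with at least 5 tags 10 of the 23 lost every summit, and with a 10 kb window 7 of the 16 gained one. No paired analysis was possible because each group has 1 library and the list merges them. Depth limits every count, since most of these peaks (29 of 54) hold 3 or 4 tags.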
